A study of Mus musculus with 4 samples.

Results

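Adenylyl cyclases are the enzymes that make cyclic AMP (cAMP) from ATP, and the mouse genes Adcy1 to Adcy10 encode them. The 10 genes were followed through 17 of the 41174 probes on an Agilent whole mouse genome array. A probe was taken when its gene name in the scanner file, or the current symbol of its accession, was one of the 10. The set was drawn up because one isoform rose and another fell among the largest differences on these same arrays, so the differences below describe the members and carry no test. Of the 17 probes, 14 from 9 genes cleared background on 2 or more of the 4 arrays and entered the fit across all genes. The other 3 probes (a pair of Adcy1 probes and the one Adcy8 probe) did not.

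The samples were cultured germline stem cells from mouse testis, the culture form of spermatogonial stem cells. Cells given 4-hydroxytamoxifen (4-Tamoxifen in the sample titles) for 48 hours filled 2 arrays. Cells given DMSO, the solvent control, filled the other 2. Both groups carried the CreERT2 recombinase, a Rose-CRE-ERT2 knock-in in the labels' spelling, and the CAG-CAT-3FlagNanos2 construct, in which the recombinase that the compound activates releases tagged Nanos2, an RNA-binding protein of spermatogonial stem cells. No group took the compound without the construct, so effects of the compound, of the active recombinase and of Nanos2 cannot be told apart. The cells grew on fibroblasts from mouse embryos with GDNF, EGF and FGF2, and the feeders were removed before RNA extraction. The labels do not say that the 2 arrays of a group came from separate cultures, so errors and p-values cover only how far these arrays spread, and that spread may be technical.

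The membrane cyclases, encoded by Adcy1 to Adcy9, cross the plasma membrane and are switched on by the G protein subunit Gs alpha. They differ in what else acts on them: calcium with calmodulin, the beta-gamma subunits of G proteins, inhibitory Gi alpha, or protein kinases. Adcy10 encodes the soluble cyclase, which ignores G proteins and forskolin, answers to bicarbonate and calcium, and is best known from sperm, where it is needed for motility. Cyclic AMP in turn activates protein kinase A, the exchange factors called Epac, and cyclic nucleotide-gated channels.

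The probes are 60 bases long and read the sense strand of each transcript. The sequences are those of the deposited scanner files, and positions are those the files list on mouse build mm9. The first set is shown because it carries the largest rise. Of the 4 Adcy1 probes on chromosome 11 (plus strand), 2 cross an exon junction at chr11:7049539-7049968 and chr11:7060308-7061323. A probe near the 3′ end of the transcript lies at chr11:7077699-7077755, and 30 of its bases are given. That listed position covers 57 bases, fewer than the 60 of the probe. Numbers after the gene name are the first base of the probe in its transcript. Capitals mark the longest run shared with a probe of another isoform. The stretch of 11448 is printed without that mark, and the longest run of its whole probe was 9 bases, shared with Adcy7.
Adcy1 2125: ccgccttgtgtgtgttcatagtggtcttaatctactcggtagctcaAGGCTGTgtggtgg
Adcy1 2661: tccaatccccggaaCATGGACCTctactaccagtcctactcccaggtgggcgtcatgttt
Adcy1 11448: gcactacggaattgcatgccttgaaattcc

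The second set is shown because Adcy5 and Adcy10 were the isoforms lower after 4-hydroxytamoxifen, while Adcy2 was higher and shares with Adcy5 the longest run found between isoforms. The Adcy5 probes adjoin each other at chr16:35299663-35299722 and chr16:35299723-35302391 (plus strand). The Adcy2 probe lies at chr13:68764755-68769811 (minus strand), and the Adcy10 probe crosses a junction at chr1:167505771-167506673 (plus strand).
Adcy5 3917: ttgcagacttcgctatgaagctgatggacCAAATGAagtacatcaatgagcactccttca
Adcy5 3977: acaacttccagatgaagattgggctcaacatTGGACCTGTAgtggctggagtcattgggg
Adcy2 3231: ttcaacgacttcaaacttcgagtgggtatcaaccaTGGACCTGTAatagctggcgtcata
Adcy10 4918: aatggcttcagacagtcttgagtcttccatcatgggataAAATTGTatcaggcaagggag

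Across all 17 probes the longest run shared with a probe of another isoform was 7 to 10 bases. The 10-base run is TGGACCTGTA, present in the Adcy5 probe at 3977 and the Adcy2 probe at 3231. These probes moved in opposite directions, as the values below show. The 2 Adcy3 probes overlap each other by 27 bases, so they are not separate readings of that gene.

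Signals below are the processed signals of the scanner files in intensity units, given as replicate 1 and replicate 2 of each group. Differences are log2, 4-hydroxytamoxifen minus DMSO, after each array was scaled to its 75th percentile, with limma's standard error and n = 2 arrays per group. Above background, or cleared background, is short for well above background by the scanner's flag. Where neither array of a group was well above background, the fold is an approximate bound, written as at least. Each dim array then enters at its own signal or, if higher, at the faintest signal that the scanner still placed well above background. The means of the groups are then compared. The bound is not strict, because a probe can read above that faintest signal and still not be well above background. Adcy1 at 64 did so with DMSO, at 19.4 and 21.7 beside faintest signals of 16.0 and 18.4. One alternative, normexp background correction, adds an offset of 50 to every signal and so shrinks differences of dim probes. Its value is given beside isoforms and called genes whose difference it moves by over 1.5-fold. Levels of different probes are not compared, because probes differ in how well they bind. In these bulk samples, fewer cells of a type and less RNA per cell cannot be told apart.

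The depth of the arrays was alike. Between 62.1% and 65.9% of spots were well above background, no spot was saturated (0 on each array), and the faintest signal still well above background was 15.0 to 19.5. Normalized values correlated at 0.997 between the 2 arrays of 4-hydroxytamoxifen, at 0.996 between the 2 of DMSO, and at 0.948 to 0.954 between groups. Nanos2 read 904 and 1070 with 4-hydroxytamoxifen and 353 and 352 with DMSO, a difference of 1.55 ± 0.10 (limma, Benjamini-Hochberg adjusted p = 0.000861). Of 17537 features tested, limma called 40.3% higher and 29.3% lower at an adjusted p under 0.05, 69.5% in all, and the median difference was 0.11. Scaled to each array's median instead, 5730 features were higher and 6663 lower, against 7063 and 5132 here, and the median of all features was −0.07.

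Most germ cell markers were lower, and most fibroblast and macrophage or blood markers higher, after 4-hydroxytamoxifen. Of 14 germ cell markers tested, 12 fell and 0 rose, and their summed signal was 112 and 117 with 4-hydroxytamoxifen, against 188 and 185 with DMSO, in units of the array's 75th percentile. The 2 that did not pass were Ddx4 and Sall4, both long-standing germ cell markers, at −0.17 and −0.16. Of 17 fibroblast markers 16 rose and 0 fell, with summed signals of 343 and 325 against 181 and 207 in DMSO. Of 10 macrophage and blood markers 7 rose and 0 fell, with sums of 35.7 and 36.6 against 16.4 and 18.2 in DMSO. Those that did not pass were the pan-leukocyte gene Ptprc at 0.01, the macrophage gene Cd68 at 0.11 and the endothelial gene Pecam1 at −0.47. The 7 included the haemoglobin gene Hba-a1 at 1.44 and the endothelial gene Tek at 1.16, which do not mark macrophages (0.62 and 0.40 with normexp). Each germ cell, fibroblast or macrophage marker with a probe was well above background on some array (0 exceptions in each list). The part of these shifts in the cyclase values was not tested.

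Of the 9 isoforms tested, 8 passed limma's threshold (88.9%, beside 69.5% of all features), 6 higher and 2 lower. For 8 of the 9, no array of one group reached into the range of the other (88.9%, beside 86.5% of all features). Since the set was chosen on this contrast, nothing is read from these shares. The median difference over the 9 was 0.87, and 5 of them differed by at least 2-fold, as did 24.7% of all features.

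**Figure D1:**
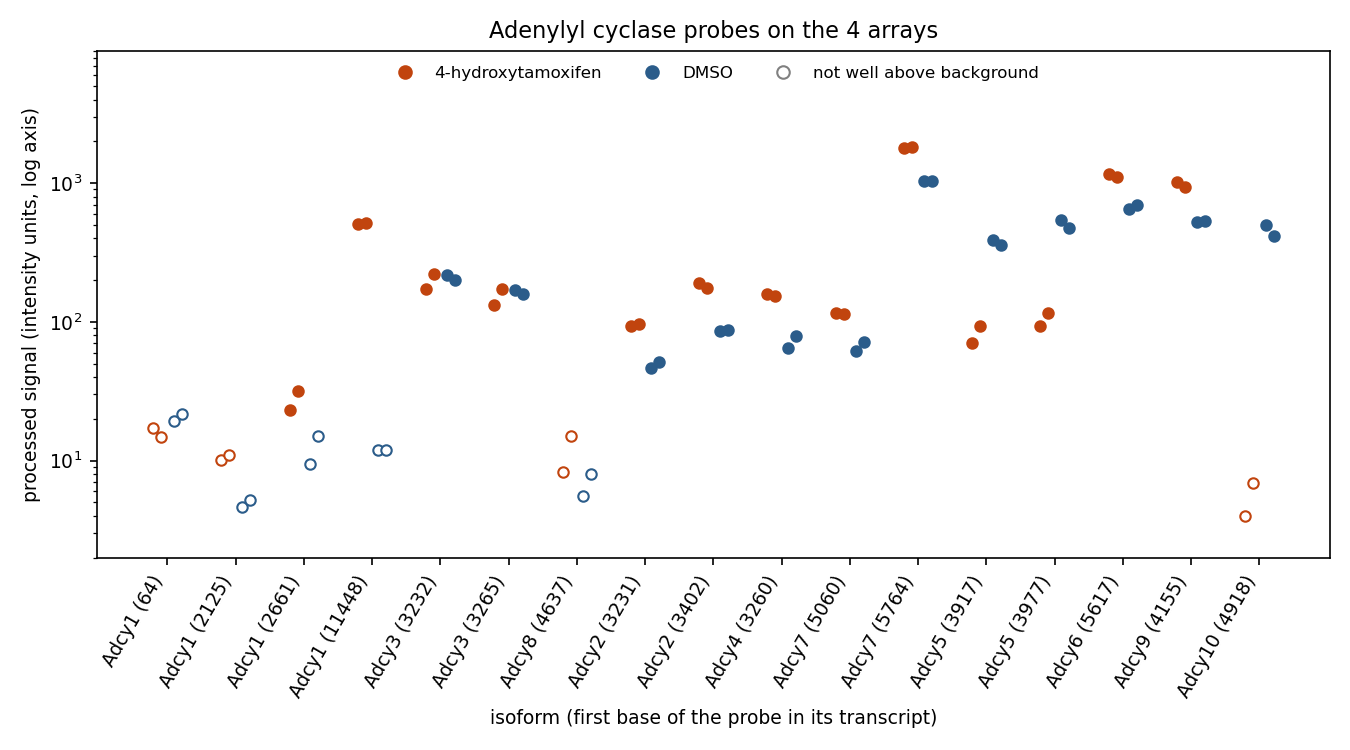
Processed signal (intensity units, log axis) of the 17 adenylyl cyclase probes, 4-hydroxytamoxifen left of DMSO at each probe, 1 point per array, with hollow points where the probe was not well above background. Adcy1 at 11448 read 509 and 514 with 4-hydroxytamoxifen and was not well above background with DMSO. Adcy10 shows the opposite layout, and the Adcy3 points of the groups overlap.

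Adcy1, Adcy3 and Adcy8 encode the cyclases that calcium with calmodulin stimulates, best known from neurons (Adcy3 from olfactory neurons). Adcy1 had the largest fitted rise of the family, and it rested on the probe at base 11448. That probe read 509 and 514 with 4-hydroxytamoxifen and 12.0 and 11.9 with DMSO. Both 4-hydroxytamoxifen arrays were bright and neither DMSO array was well above background. The fitted difference was 5.49 ± 0.07, and the bound was at least 31.2-fold higher with 4-hydroxytamoxifen. With normexp the difference was 2.88, under that bound.

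The other 3 Adcy1 probes stayed near background on every array. The junction probe at 2661 read 23.0 and 31.7 with 4-hydroxytamoxifen and 9.44 and 15.2 with DMSO. It was well above background in the 4-hydroxytamoxifen arrays alone, by a fitted 1.24 ± 0.29 and a bound of at least 1.65-fold (0.18 with normexp). The junction probe at 2125 read 10.0 and 11.0 with 4-hydroxytamoxifen and 4.63 and 5.20 with DMSO, not well above background on any array. The probe at 64, placed by the files on an Ensembl transcript between those junctions, read 17.1 and 14.8 with 4-hydroxytamoxifen and 19.4 and 21.7 with DMSO, also not well above background on any array. Upstream of the 3′ probe, Adcy1 thus gave 1 bound and 2 probes without a test. Elsewhere in the family, the 2 probes of a gene gave differences 0.14 apart for Adcy2, 0.05 for Adcy3, 0.09 for Adcy5 and 0.01 for Adcy7. Those pairs lie closer together in their transcripts than the Adcy1 probes at 2661 and 11448. The Adcy3 probes overlap and the Adcy5 probes adjoin, so these pairs set no standard for Adcy1.

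Adcy3 was the one tested isoform whose groups overlapped. Its probe at 3232 read 172 and 223 with 4-hydroxytamoxifen and 216 and 199 with DMSO, a difference of −0.01 ± 0.15. Its probe at 3265 read 132 and 172 with 4-hydroxytamoxifen and 170 and 159 with DMSO, a difference of −0.06 ± 0.15. The 2 arrays of 4-hydroxytamoxifen stood further apart than the group means did. Adcy8, the other calcium-stimulated cyclase of brain, read 8.33 and 15.0 with 4-hydroxytamoxifen and 5.52 and 8.06 with DMSO. It was not well above background on any array, so no difference was detectable at this signal.

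Adcy2, Adcy4 and Adcy7 encode the group that beta-gamma subunits stimulate together with Gs alpha, and all 3 were higher with 4-hydroxytamoxifen. Adcy2 at 3402 read 191 and 176 with 4-hydroxytamoxifen and 85.3 and 87.3 with DMSO, a difference of 1.16 ± 0.08 (2.23-fold). Its junction probe at 3231 read 93.0 and 96.8 with 4-hydroxytamoxifen and 46.7 and 51.4 with DMSO, a difference of 1.02 ± 0.08 (2.03-fold). Both Adcy2 probes separated the groups without overlap.

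Adcy4, a cyclase found in many tissues and in blood vessels, read 159 and 153 with 4-hydroxytamoxifen and 64.3 and 78.9 with DMSO. The difference was 1.20 ± 0.12 (2.30-fold), and both 4-hydroxytamoxifen arrays lay above both DMSO arrays. Adcy7 is the main cyclase of many blood and immune cells. Its probe at 5764 read 1796 and 1823 with 4-hydroxytamoxifen and 1033 and 1043 with DMSO, a difference of 0.87 ± 0.07 (1.83-fold). The probe at 5060 read 117 and 113 with 4-hydroxytamoxifen and 61.2 and 72.1 with DMSO, a difference of 0.86 ± 0.10 (1.82-fold). Both Adcy7 probes put the 4-hydroxytamoxifen arrays above the DMSO arrays, with nearly equal folds.

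Adcy5 and Adcy6 encode the closely related pair that Gi alpha and calcium inhibit, the main cyclases of heart muscle, and they moved in opposite directions. Adcy5 at 3977 read 92.6 and 115 with 4-hydroxytamoxifen and 539 and 478 with DMSO. The adjoining probe at 3917 read 70.3 and 93.6 with 4-hydroxytamoxifen and 389 and 358 with DMSO. Every 4-hydroxytamoxifen array was far below every DMSO array on both probes, and all 4 arrays were well above background, so these are measured folds and not bounds. The differences were −2.22 ± 0.14 at 3977 (4.67-fold lower) and −2.13 ± 0.16 at 3917 (4.38-fold lower), the second being −1.42 with normexp. Of all features, 1.05% had a difference as low as that of Adcy5 or lower. This share is a description and no test, since the set was chosen on this contrast.

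Adcy6 read 1160 and 1109 with 4-hydroxytamoxifen and 646 and 698 with DMSO. The difference was 0.83 ± 0.08 (1.77-fold), with both 4-hydroxytamoxifen arrays above both DMSO arrays. Adcy9 encodes the membrane cyclase that forskolin activates poorly or not at all. It read 1021 and 937 with 4-hydroxytamoxifen and 524 and 534 with DMSO, a difference of 0.96 ± 0.08 (1.94-fold). Adcy2, Adcy4, Adcy6, Adcy7 and Adcy9 (5 genes, 7 probes) had differences of 0.83 to 1.20. They were grouped after their values were seen, so their closeness is no result. The fitted difference of the Adcy1 probe at 2661, 1.24, lay just above that range. Beside these 5 genes stand medians of 1.02 for fibroblast markers, 1.01 for macrophage and blood markers, and 0.11 for all features. The 4 guanylyl cyclases tested, which make cyclic GMP, had a median of 1.03, and all tested genes of the cAMP pathway lists 0.29. Which cells of the culture held the transcripts of the 5 isoforms was not tested.

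Adcy10, the soluble cyclase, had the largest fitted fall of the family. It read 4.01 and 6.92 with 4-hydroxytamoxifen and 503 and 416 with DMSO. Both DMSO arrays were bright, and neither 4-hydroxytamoxifen array was well above background. The fitted difference was −6.37 ± 0.30, and the bound was at least 25.4-fold lower with 4-hydroxytamoxifen. With normexp the difference was −2.83, short of that bound. One junction probe stood for the gene, so no other probe bears on its transcript. Beside it, the germ cell markers had a median difference of −1.03, and their largest fall was that of Gfra1, the GDNF co-receptor of spermatogonial stem cells, at −2.45, or −1.84 with normexp (limma, adjusted p = 0.000367 without it). The 8 spermatocyte and spermatid markers tested had a median of −0.14. Of these, 1 was higher and 3 lower (12.5% and 37.5%, beside 40.3% and 29.3% of all features). Their summed signal was 7.48 and 7.38 with 4-hydroxytamoxifen, against 10.3 and 9.14 with DMSO.

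**Figure D2:**
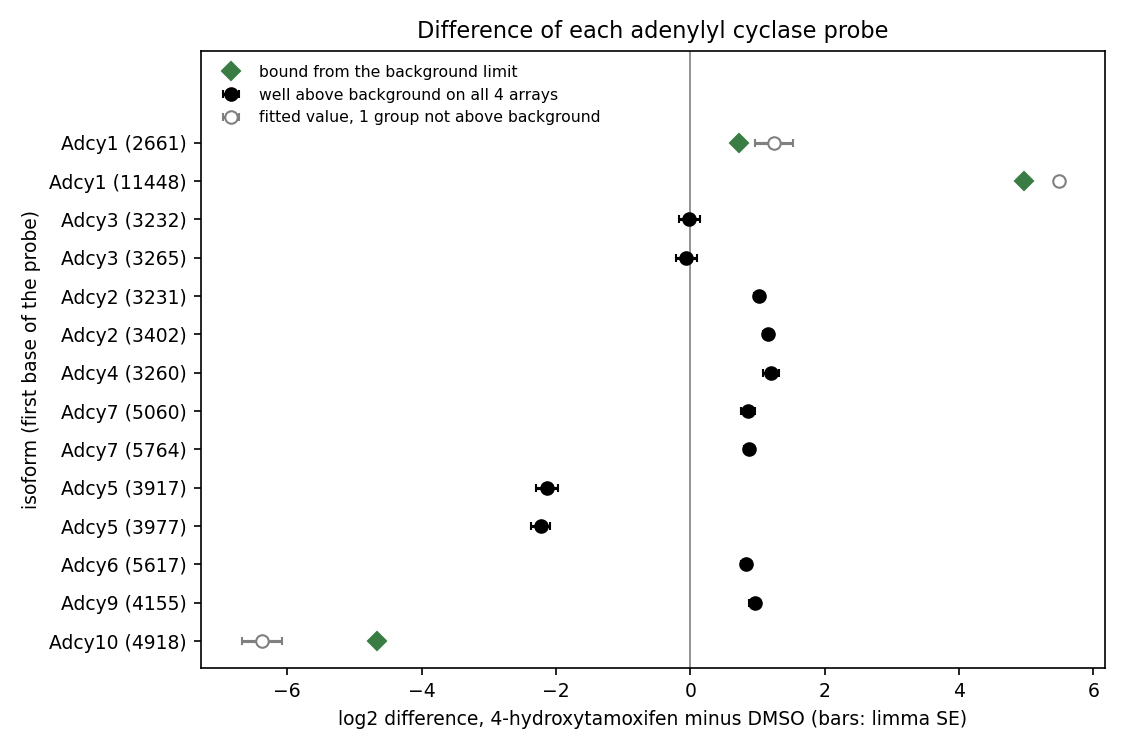
Log2 difference (4-hydroxytamoxifen minus DMSO) of the 14 probes that entered the fit, with bars of limma's standard error. Black points were well above background on all 4 arrays. Hollow points have 1 group that was not, and green diamonds mark the corresponding bound. The 7 probes of Adcy2, Adcy4, Adcy6, Adcy7 and Adcy9 lie between 0.83 and 1.20, with Adcy5 near −2.

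For Adcy1 and Adcy10, the 3 features with a symbol and the smallest root mean square distance between centred log2 values over the 4 arrays were looked up. For the Adcy1 probe at 11448 they were Mlana, Igfbp1 and 0610040J01Rik. For Adcy10 they were H3c1 and H1f5, both replication-dependent histone genes, and Asb9. Adcy1 was not well above background in DMSO, nor were Adcy10 and H3c1 with 4-hydroxytamoxifen. These distances thus rest on signal near background and give no order. Mlana, a melanosome protein, read 1404 and 1475 with 4-hydroxytamoxifen and 35.1 and 33.2 with DMSO, above background on all arrays, a difference of 5.47 ± 0.07 (3.99 with normexp).

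Igfbp1 is also a neighbour of Adcy1 on chromosome 11, as was seen after the values were known. It encodes a secreted protein that binds insulin-like growth factors, and its probe lies 24.7 kb beyond the Adcy1 probe at 11448. It read 684 and 571 with 4-hydroxytamoxifen and 18.4 and 19.9 with DMSO, where 1 of 2 arrays was well above background, a difference of 5.10 ± 0.11 (limma, adjusted p = 0.000367), or 3.12 with normexp. Igfbp3, its family member beyond it, had 3 probes. The one at 28.9 kb differed by 1.18. Those at 30.8 and 34.1 kb were not well above background in DMSO, with bounds of at least 1.55-fold and 2.77-fold higher. The upstream Adcy1 probes lie 17.4, 17.8 and 28.2 kb on the other side. Around Adcy10 the window held 1 other gene, Mpzl1, at 16.7 kb with a difference of −0.37.

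**Figure D3:**
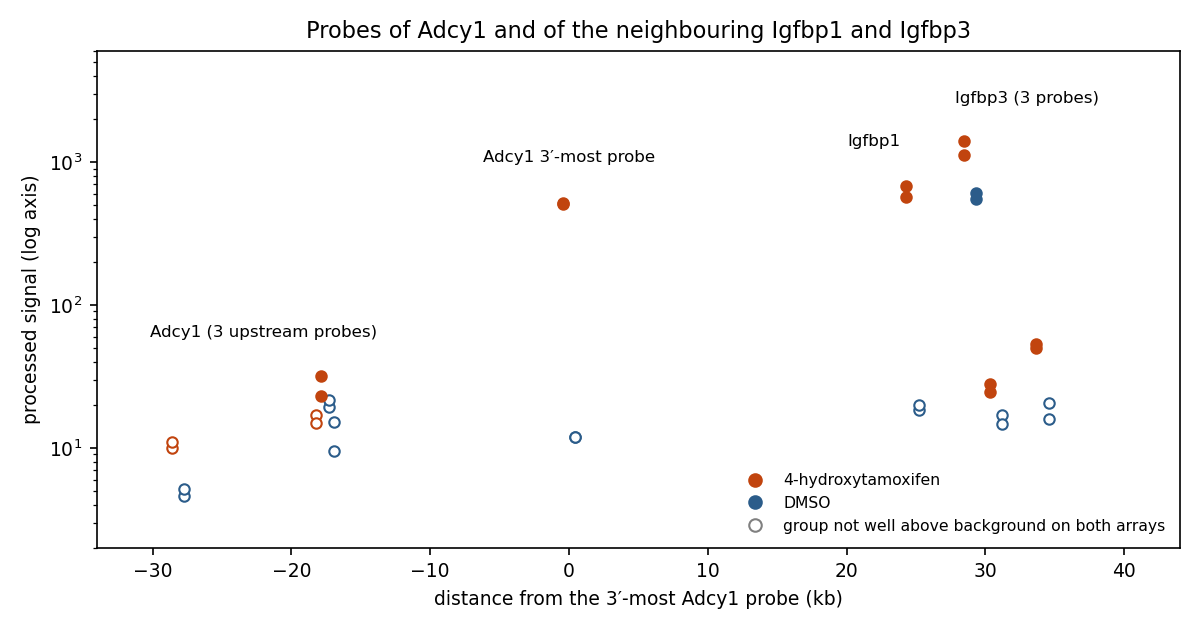
Processed signal (log axis) of the Adcy1, Igfbp1 and Igfbp3 probes against distance in kb from the 3′-most Adcy1 probe, 4-hydroxytamoxifen left of DMSO, 1 point per array; hollow points mark a group that was not well above background on both of its arrays. The 3′ Adcy1 probe and Igfbp1 rise far above their DMSO points, while the 3 upstream Adcy1 probes stay at 31.7 or below.

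The rest of the cAMP pathway was described by 10 lists of 246 genes, of which 237 had a probe and 156 were tested. Limma called 74 higher (47.4%, beside 40.3% of all features) and 38 lower (24.4%, beside 29.3%). The median difference was 0.29. Those shares of all features also stand beside the counts of each list below. Both directions occurred in each list but the guanylyl cyclases, the sister enzymes that make cyclic GMP, where 3 of 4 tested rose and 0 fell. Of these, Gucy2c rose by 1.42 ± 0.11 (0.70 with normexp) and Npr2 by 1.22 ± 0.11 (limma, adjusted p = 0.00113 and 0.00155).

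Among ligands, Adcyap1 was looked up after values were seen, because its name shares the prefix; it encodes the peptide PACAP, which activates cyclases through Gs-coupled receptors. It read 103 and 132 with 4-hydroxytamoxifen and 10.1 and 10.1 with DMSO, where neither array was well above background, at least 7.10-fold higher (limma, adjusted p = 0.000448), with a difference of 1.24 under normexp. Its receptor Adcyap1r1 read 826 and 840 with 4-hydroxytamoxifen and 464 and 525 with DMSO, a difference of 0.83 ± 0.08 (limma, adjusted p = 0.00185), which did not pass with the mean of its probes (0.35, adjusted p = 0.0813). The ligand's probe and the receptor's brightest probe were thus higher in each 4-hydroxytamoxifen array.

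Of 23 receptors tested that raise cAMP through Gs, 11 rose and 3 fell, with a median of 0.55. Ptger4, a prostaglandin E2 receptor, read 87.9 and 75.3 with 4-hydroxytamoxifen. With DMSO it read 16.2 and 19.0, not well above background, so it was at least 4.86-fold higher. Crhr2, a receptor for urocortins, rose by 1.81 ± 0.12 (limma, adjusted p = 0.000827). Adrb1, the beta-1 adrenergic receptor, was at least 2.0-fold lower, with neither 4-hydroxytamoxifen array well above background. With normexp these differences were 0.84 for Ptger4, 0.79 for Crhr2 and −0.52 for Adrb1. The receptors for the gonadotropins, Fshr and Lhcgr, were not well above background on any array, as were 19 of the 44 genes of this list in all.

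Of 16 receptors tested that lower cAMP through Gi, 6 rose and 3 fell, with a median of 0.07. The mu opioid receptor gene Oprm1 was at least 1.74-fold higher and the alpha-2C adrenergic receptor gene Adra2c at least 2.29-fold higher. Neither was well above background in DMSO. With no filter on dim probes, a brighter Oprm1 probe that the filter removes stood for the gene. It differed by −0.36 and did not pass (limma, adjusted p = 0.524). S1pr1, a sphingosine 1-phosphate receptor, rose by 1.13 ± 0.19 with 1 of 2 DMSO arrays above background (limma, adjusted p = 0.00763). With normexp the differences were 0.61 for Oprm1, 0.64 for Adra2c and 0.43 for S1pr1. In this list 27 genes were not well above background on any array.

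Of 13 G protein alpha subunits tested, 5 rose and 2 fell. Gnas, which encodes the Gs alpha that activates the membrane cyclases, has no settled direction here: its brightest probe gave 0.33 ± 0.06 (limma, adjusted p = 0.00966), and the mean of its probes gave −0.94 (adjusted p = 0.00475). The first value also missed the threshold with median and spike-in scaling (adjusted p = 0.101 and 0.529) and without 4-hydroxytamoxifen replicate 2 (adjusted p = 0.0521). Gnai1 and Gnaq rose by 0.51 ± 0.08 and 0.60 ± 0.12 (limma, adjusted p = 0.00666 and 0.0118). With spike-in scaling neither passed (adjusted p = 0.163 and 0.0728). Under that scaling limma gave genes nearly the same variance, so its p-values followed the size of the difference and not each gene's own spread. Gna13 rose by 0.99 ± 0.06 (limma, adjusted p = 0.000814), or by 0.45 with the mean of its probes. The inhibitory Gnai2 and Gnai3 did not pass, at 0.14 ± 0.08 and −0.04 ± 0.08.

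Of 13 beta and gamma subunits tested, 8 rose and 4 fell, with a median of 0.42. Gng11 rose by 1.13 ± 0.10 and Gng8 by 1.11 ± 0.18 (limma, adjusted p = 0.00156 and 0.00629). Gng3 was at least 3.23-fold lower (−0.56 with normexp). It read 17.1 and 18.4 in the 4-hydroxytamoxifen arrays, not well above background, and 57.6 and 66.8 in the DMSO arrays.

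The 22 direct regulators of cyclases, such as calmodulins and protein kinases that act on them, divided into 10 higher and 8 lower. Calm3, 1 of the calmodulin genes, read 2481 and 2347 with 4-hydroxytamoxifen and 8228 and 8440 with DMSO, a fall by 1.72 ± 0.07 (limma, adjusted p = 0.000451). That value rests on the brightest Calm3 probe, and the mean of its probes gave −0.37. Prkce, the protein kinase C epsilon gene, rose by 1.63 ± 0.10 (adjusted p = 0.00078). Camk2a, a calcium and calmodulin-dependent kinase gene, rose by 3.25 ± 0.36 with 1 of 2 DMSO arrays above background (adjusted p = 0.00236), and by 1.35 with normexp.

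Of 14 genes tested that supply bicarbonate or act with the soluble cyclase in sperm, 6 rose and 5 fell, with a median of −0.02. The bicarbonate carrier gene Slc4a7 read 16885 and 3375 with 4-hydroxytamoxifen and 721 and 737 with DMSO. Its 2 treated arrays disagreed: the difference was 3.44 ± 0.82 over all arrays (limma, adjusted p = 0.0213), 2.28 without 4-hydroxytamoxifen replicate 1 and 4.61 without replicate 2. The mean of its probes gave 0.77, and with no filter on dim probes the call was lost (adjusted p = 0.0606). The anion exchanger gene Slc26a3 was at least 3.89-fold higher and Slc26a8, which acts in sperm, at least 1.24-fold lower with 4-hydroxytamoxifen. With normexp Slc26a3 differed by 1.23, and Slc26a8 did not pass (−0.17, adjusted p = 0.0652).

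Downstream, 6 of 12 cAMP phosphodiesterases rose and 3 fell. Pde4c read 24.0 and 29.1 with 4-hydroxytamoxifen and 721 and 640 with DMSO, a fall by 4.61 ± 0.13 (limma, adjusted p = 0.000367), and −3.05 with normexp. Pde1a rose by 1.45 ± 0.08 (0.70 with normexp) and Pde7a fell by 1.05 ± 0.06 (adjusted p = 0.00066 and 0.000773). Of 21 effectors tested, 9 rose and 5 fell; the cAMP-binding Popdc3 and Popdc2 rose by 1.72 ± 0.19 and 1.66 ± 0.16, each with 1 of 2 DMSO arrays above background (0.65 and 0.51 with normexp).

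Of 18 genes tested that cAMP is known to induce through CREB, 10 rose and 5 fell, with a median of 0.50. That is 55.6% higher and 27.8% lower, beside 40.3% and 29.3% of all features. Bdnf, Areg and Gem rose by 1.63 ± 0.14, 1.51 ± 0.08 and 1.41 ± 0.10 (limma, adjusted p = 0.00143, 0.000671 and 0.001), Areg by 0.71 with normexp. Others of the list fell, among them the immediate early gene Egr1 by 1.31 ± 0.08 and the clock gene Per1 by 0.78 ± 0.06 (adjusted p = 0.000783 and 0.00124), named after their values were seen. The arrays measured transcripts, and cAMP itself was not measured.

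**Figure D4:**
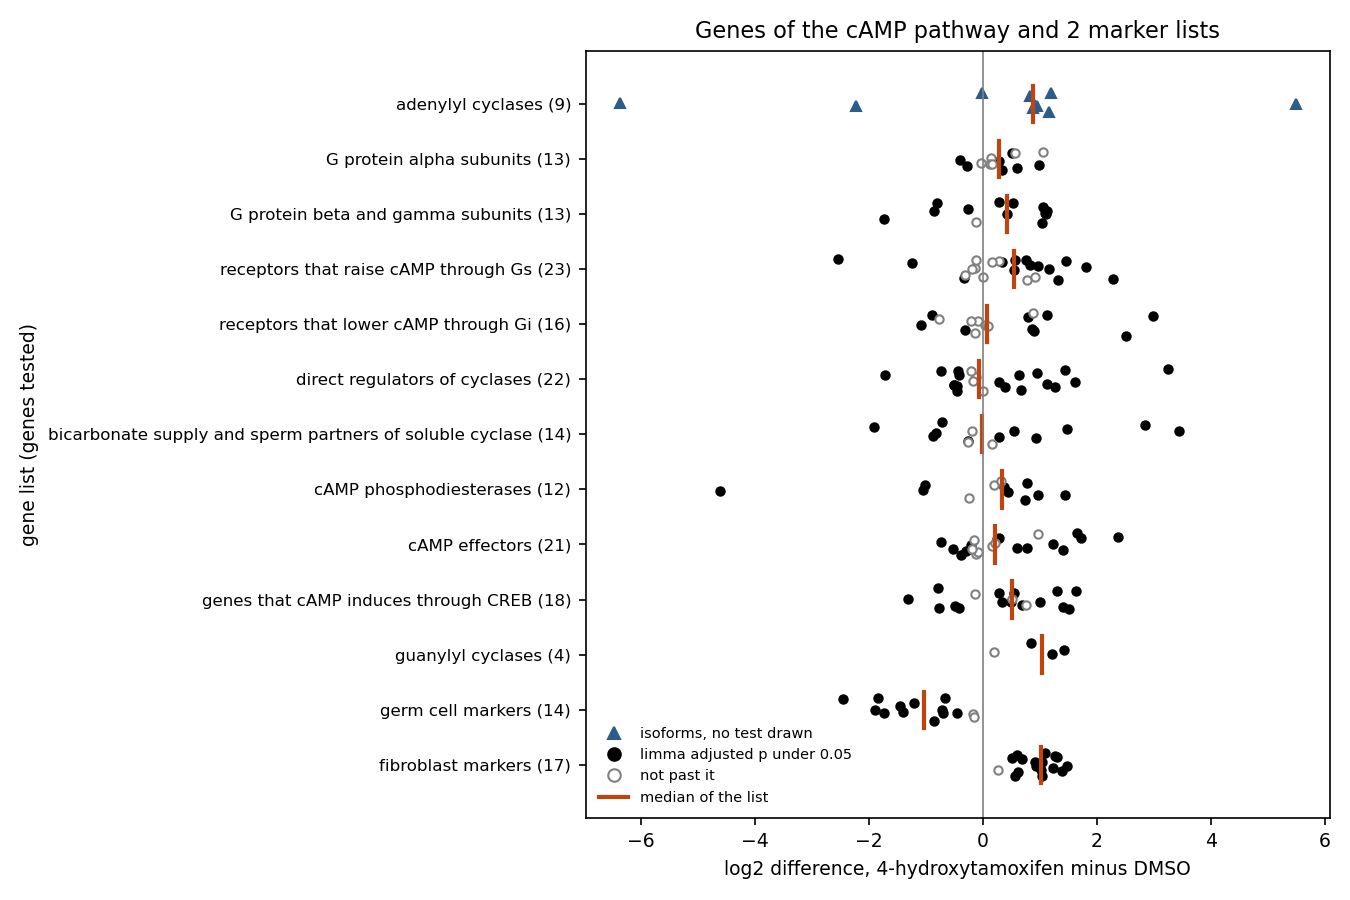
Log2 difference (4-hydroxytamoxifen minus DMSO) of each tested gene in the 10 pathway lists and 2 marker lists, with the isoforms on top as triangles and a bar at each list's median; filled circles passed limma's adjusted p of 0.05. The isoforms span −6.37 to 5.49 around a median of 0.87, while fibroblast markers lie to the right (median 1.02) and germ cell markers to the left (median −1.03).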

How the data were processed

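The authors deposited scanner files with intensity values per spot, which Agilent Feature Extraction 10.7.3.1 background-subtracted per the file headers (version 9.5 per the submitters' processing notes). The deposited value table holds log2 values that match the processed signals on that scale, shifted by a fixed amount for every array (0.362 and 0.356 for 4-hydroxytamoxifen, 0.290 and 0.275 for DMSO; column medians 6.35, 6.35, 6.16 and 6.18), so its scale, centring and direction are known. All 4 arrays shared 1 slide and 1 scan, with 4-hydroxytamoxifen at positions 2 and 4 and DMSO at 1 and 3.

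From the processed signals, controls and 60 to 71 spots flagged as outliers on each array were left out and log2 values taken minus each array's 75th percentile. Repeated spots were averaged, and 26392 probes that cleared background on 2 or more arrays were kept. The brightest probe stood for its gene (17537 features). Names came from RefSeq GRCm38.p6 for 33636 probes, and 7538 kept the file's name. Limma 3.58.1 in R 4.3.3 fitted group alone, with Benjamini-Hochberg adjustment, and was tested on simulated data. The number of arrays limits the precision. Members, lists and the naming rule were chosen with earlier results of these data known. The rule names every member probe, Nanos2, up to 3 genes per pathway list with the largest difference among those called without overlap, and the 3 features most like Adcy1 and Adcy10. Genes beyond it were named after their values were seen. A gene that the rule names is not reported here. Same-numbered arrays deviated together at a correlation of −0.05, so the numbers were not taken as pairs.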

Additional observations from a re-analysis of the deposited data

How the results depend on the processing

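Alternatives were scaling by quantiles, by the median or by spike-ins, normexp with an offset of 50, the deposited table, both other filters on dim probes, the mean of a gene's probes, the replicate number as a block, and leaving out each array. Of the counts of calls, 77 stayed within 1.5 times. The exception was the filter for probes well above background on all 4 arrays, which removes Adcy1 and Adcy10 by construction and left 1 isoform lower. Spike-in scaling gave 4777 features higher and 4993 lower, with nearly the same variance for every gene. With the replicate block, 6 isoforms were higher and 2 lower, as without it, with 68 pathway genes higher and 32 lower. Over all settings that kept a probe, Adcy1 at 11448 ranged from 2.88 (normexp) to 5.50, Adcy1 at 2661 from 0.18 (normexp) to 1.58, Adcy10 from −6.76 to −2.83 (normexp), and the Adcy5 probes from −2.41 to −1.42. The 5 isoforms Adcy2, Adcy4, Adcy6, Adcy7 and Adcy9 ranged from 0.54 to 1.34. The sign of Adcy3 varied, from −0.25 to 0.17. Without a filter on dim probes, a brighter Oprm1 probe that the filter removes stood for the gene, at −0.36 (limma, adjusted p = 0.524). With the mean of its probes, Gnas read −0.94 (adjusted p = 0.00475). Slc4a7 did not pass without a filter on dim probes (adjusted p = 0.0606), nor did Slc26a8 with normexp (adjusted p = 0.0652). Why probes of a gene disagree, and why the calls of Slc4a7 and Slc26a8 were lost, was not tested. Leaving out 1 array left the calls of the isoforms at 6 higher and 2 lower. Signals near background limit Adcy8 and 3 of the Adcy1 probes.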

Other observations

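Of 10 neuron markers, 5 rose and 2 fell, with summed signals of 4.99 and 5.79 with 4-hydroxytamoxifen and 6.37 and 5.12 with DMSO, which overlap. Of 6 Sertoli and Leydig markers tested, 2 rose and 2 fell, with sums of 1.95 and 1.99 against 1.20 and 1.34 in DMSO; Cldn11, a tight junction gene, rose by 3.58 (2.24 with normexp) and Sox9 by 0.81, while Wt1 fell by 0.88 and Cyp17a1 by 0.43 (limma, adjusted p = 0.000378, 0.00457, 0.0022 and 0.0255). Cyp17a1 did not pass with no filter on dim probes or without 4-hydroxytamoxifen replicate 1 or DMSO replicate 1 (adjusted p = 0.0775, 0.0805 and 0.074). The other 2, Star and Rhox5, were at −0.13 and −0.03, and Amh and Cyp11a1 were not well above background on any array.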
